A study of Mus musculus with 6 samples.

Results

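Nuclear genes that encode the subunits of oxidative phosphorylation were examined in sorted mouse osteoblasts, complex by complex. Members were taken by symbol: Sdha to Sdhd, Cyc1, and every protein-coding gene whose current symbol has a given beginning. These beginnings are Ndufa, Ndufb, Ndufc, Ndufs, Ndufv, Uqcr, Cox4i, Cox5, Cox6, Cox7, Cox8 and Atp5, with the Ndufaf assembly factors left out. Protein-coding genes with an older symbol that begins with Atp5 were also taken. The rule found 91 of the 27179 gene IDs in the count table, namely 38 for complex I, 4 for complex II, 9 for complex III, 20 for complex IV and 18 for complex V. The remaining 2, Dmac2 and Dmac2l, are no subunits but once carried an Atp5 name. Of the 91 members, 84 passed the filter on low counts, and the other 7 are given by their counts.

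The study sequenced RNA of osteoblasts, the cells that lay down bone, from the calvaria (skull vault) of 5-day-old C57Bl/6J pups. Cells freed with collagenase were sorted into Trizol by a GFP transgene that depends on Osteocalcin-Cre, a recombinase active in osteoblasts. The labels assign 3 libraries to pups with a conditional knockout of Cdc73 (Hrpt2), which encodes the Paf1 complex subunit parafibromin, and 3 to wildtype pups. Cells of both groups were sorted in the same way. The labels do not say which Cre or floxed alleles the wildtype pups carried, or whether a library is 1 animal, litter or pool. The p-values therefore reflect only how far these samples lie apart, and part of that spread may be technical.

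Oxidative phosphorylation takes place in the inner mitochondrial membrane. Complex I (NADH dehydrogenase) and complex II (succinate dehydrogenase) pass electrons to coenzyme Q, complex III passes them to cytochrome c, and complex IV (cytochrome c oxidase) passes them to oxygen, while complexes I, III and IV pump protons. Complex V, the ATP synthase, uses the proton gradient to make ATP. Most subunits are encoded in the nucleus and a few in the mitochondrial genome. Complexes I, III, IV and V need both sets of transcripts. Osteoblasts are known to draw on both respiration and glycolysis.

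The promoters of these genes are known for sites of the nuclear respiratory factor Nrf1, and stretches upstream of 4 members are shown because they carry a core of its motif. They are, for each complex, the tested member of smallest p with a match of GCGCANGCG (either strand) wholly before the gene start, and no tested member of complex III had one there. The sequences are RefSeq's (GRCm38.p6), written 5′ to 3′ on the gene's strand, with every match in capitals. Ndufs5 lies at chr4:123718236-123718324, Sdha at chr13:74350290-74350378, Cox6a1 at chr5:115349072-115349160 and Atp5k at chr5:108434401-108434489, all on the minus strand.
Ndufs5: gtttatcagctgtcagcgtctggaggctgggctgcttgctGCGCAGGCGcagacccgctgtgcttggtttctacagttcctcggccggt
Sdha: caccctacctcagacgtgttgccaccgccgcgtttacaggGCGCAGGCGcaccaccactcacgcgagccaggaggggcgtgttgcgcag
Cox6a1: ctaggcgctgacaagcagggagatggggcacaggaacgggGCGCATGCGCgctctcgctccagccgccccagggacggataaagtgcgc
Atp5k: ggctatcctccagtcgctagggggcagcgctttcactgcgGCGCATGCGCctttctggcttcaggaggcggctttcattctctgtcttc
The stretches of Cox6a1 and Atp5k hold 2 overlapping matches, 1 on each strand, and those of Ndufs5 and Sdha hold 1.

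RefSeq gave a window of 300 bases (250 before the gene start and 50 after it) for 73 of the 91 members and for 17492 coding genes. The Nrf1 motif was in 21 member windows (28.8%) and in 9.63% of all coding genes' windows, with 8 of 33 windows in complex I, 2 of 3 in complex II, 2 of 5 in complex III, 1 of 14 in complex IV and 8 of 16 in complex V. The letters CCGGAAG, read by Gabpa (nuclear respiratory factor 2 alpha), were in 17 member windows (23.3%) against 12.9% of all windows. AANATGGCG, read by Yy1, was in 12 (16.4%) against 3.64%, and AAGGTCA, read by the estrogen-related receptor Esrra, was in 9 (12.3%) against 4.73%. All motifs were searched on both strands, and a match is a description of the letters, not a bound site. GCGCANGCG and the other motifs do not contain one another. Tested members with the Nrf1 motif had a median log2 fold change of -0.39 and those without it -0.46.

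Library totals ranged from 13591925 to 20993962 counts. Osteoblast genes were abundant in every library, with a summed level of 10 markers between 237090 and 350750 CPM (counts after TMM scaling to a common library total). Cdc73 itself had a log2 fold change of -0.36 ± 0.22 (standard error; edgeR quasi-likelihood test, Benjamini-Hochberg adjusted p = 0.428), and wildtype 2 lay below all 3 knockout libraries, so its level does not check the labels. For the members, the library labelled wildtype 1 lay among the knockout libraries and apart from wildtype 2 and 3. Whether this library is what its label says, or holds other cells, was not tested, and every direction below refers to the libraries as labelled. Main results are also given without wildtype 1. Because that library was doubted from these same values, the calls and adjusted p-values without it are descriptions and add no support.

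Most nuclear subunit genes had lower mean levels in the libraries labelled knockout, with medians by complex from -0.47 to -0.39 on the log2 scale, but no member passed the test. Of 84 tested members, 80 had a negative log2 fold change, against 50.7% of all 13505 tested genes, and 59 were below -0.3, against 22.9%. The median over members was -0.41 and the median over all tested genes was -0.006. At an unadjusted p under 0.05, 20 members were lower (6.35% of all genes) and 1 was higher (8.26% of all genes). The edgeR quasi-likelihood test called 0 members (smallest Benjamini-Hochberg adjusted p = 0.277) and 0.0% of all genes. DESeq2 called 0 members and 248 of all genes, and limma voom called 0 of either.

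By library, the summed level of the tested and untested members together was 3542, 2973 and 3774 CPM in knockout 1, 2 and 3. It was 3368, 4645 and 5374 CPM in wildtype 1, 2 and 3. The sum in wildtype 1 thus lay within the knockout range, and the sums in wildtype 2 and 3 lay above it. Wildtype 3 was the highest of the 6 libraries for 69 of 84 members (28.5% of all genes), wildtype 2 for 12 (21.3%) and wildtype 1 for 0 (8.0%). Knockout 2 was the lowest for 69 members, against 19.2% of all genes. In bulk RNA, fewer cells of a type and less RNA per cell cannot be told apart.

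**Figure D1:**
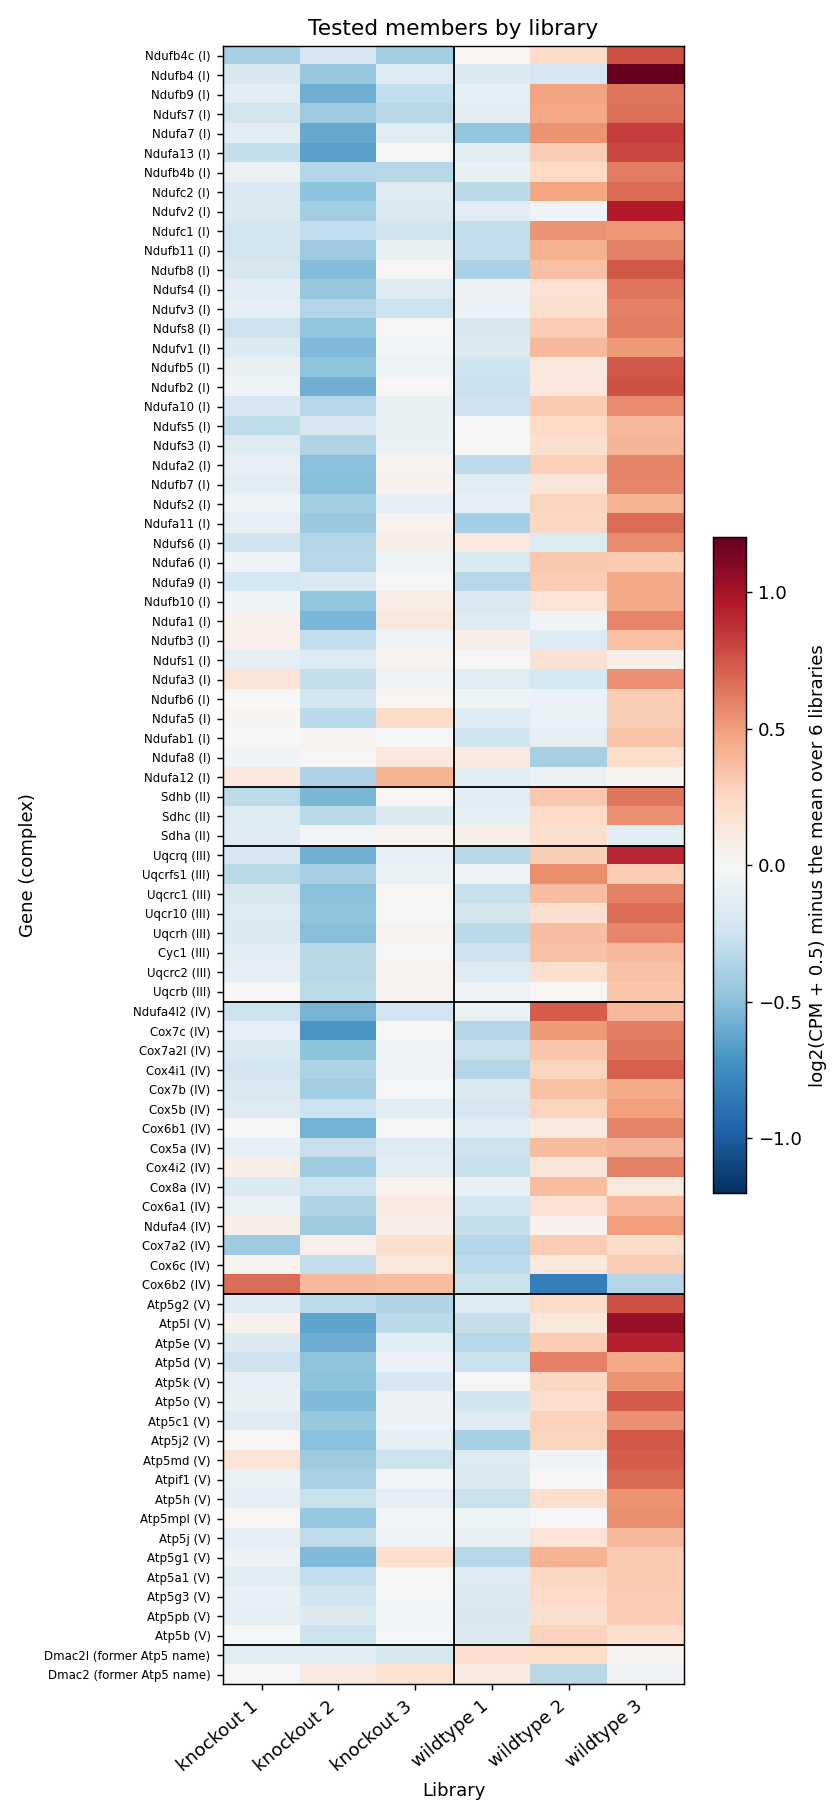
Level of each tested member (rows, grouped by complex) in each of the 6 libraries (columns), as log2(CPM + 0.5) minus the gene's mean over the 6 libraries, with the colour scale ending at ±1.2. The columns of wildtype 2 and 3 are mostly red (above the mean), that of knockout 2 is mostly blue, and wildtype 1 mostly resembles the knockout columns. Cox6b2 is the row in which every knockout library lies above every wildtype library.

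How many members separate the groups depends on the wildtype library. Every knockout library was below every wildtype library for 13 of 84 members (9.81% of all genes). The count was 66 without wildtype 1 (23.6% of all genes). Against wildtype 1 alone it was 16 (24.5%), against wildtype 2 alone 67 (36.6%), and against wildtype 3 alone 80 (39.4%). Without wildtype 1, the members' median was -0.61, and the edgeR quasi-likelihood test (Benjamini-Hochberg adjusted p under 0.05) called 8 members lower and 0 higher, where it called 0.832% of all genes lower and 2.13% higher. The 8 were Ndufs7, Ndufb9, Ndufb11, Ndufa7, Ndufc1, Ndufc2, Atp5d and Ndufa4l2. When wildtype 1 was the sole control, the members' median was 0.015 and 37 of 84 members were negative, against 48.2% of all genes. Without wildtype 3, the members' median was -0.21 and 74 of 84 were negative.

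**Figure D2:**
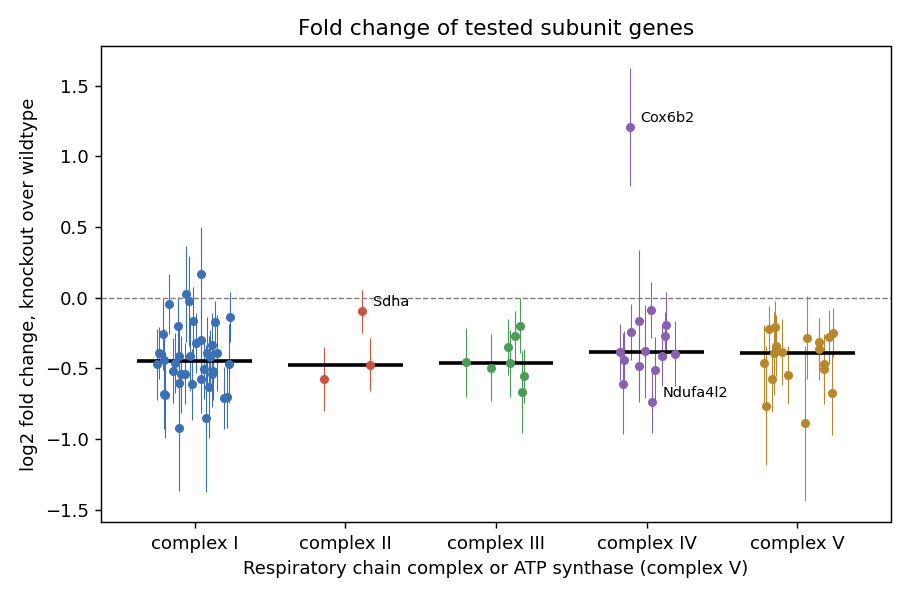
Log2 fold change (knockout over wildtype, 3 libraries each) of each tested subunit gene with its standard error, by complex, with a black line at each complex's median. The medians lie between -0.47 (complex II) and -0.39 (complex IV and V), and Cox6b2 is the point far above 0.

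Complex I takes electrons from NADH, and 36 of its 38 members were negative, with a median log2 fold change of -0.45. The 7 nuclear core subunits, which hold the flavin and the iron-sulfur clusters, had a median of -0.51 and the 31 accessory subunits one of -0.44. Ndufs7 (gene ID 75406, chromosome 10, 80249105 to 80256794, GRCm38.p6), a core subunit with the last iron-sulfur cluster before coenzyme Q, measured 23.0, 19.7 and 21.2 CPM in knockout 1, 2 and 3 and 24.5, 37.3 and 42.6 CPM in wildtype 1, 2 and 3. The groups did not overlap, but wildtype 1 was close to knockout 1. The log2 fold change was -0.71 ± 0.21 (edgeR quasi-likelihood test, Benjamini-Hochberg adjusted p = 0.277). Without wildtype 1 it was -0.93 (same test, adjusted p = 0.0367).

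Ndufb9 and Ndufa13 are accessory subunits, the latter also known as GRIM-19. Ndufb9 measured 32.0, 23.4 and 28.6 CPM in the knockout libraries and 32.6, 49.5 and 55.2 in the wildtype libraries. Wildtype 1 exceeded knockout 1 by little, and the log2 fold change was -0.71 ± 0.22. Ndufa13 measured 33.7, 26.1 and 40.6 CPM against 37.6, 50.8 and 72.4, so that wildtype 1 lay inside the knockout range (-0.68 ± 0.25). Ndufv3, at the tip of the NADH arm, did not overlap between groups, with 21.0, 17.8 and 19.1 CPM against 21.7, 26.2 and 35.1 (-0.52 ± 0.20). The exons of Ndufb9 and Ndufa13 overlap those of other genes over 19.5% and 30.0% of their length, Ndufa13 with Tssk6, and reads there cannot be assigned by gene without strand. The 2 members of positive value were Ndufa12 (0.17 ± 0.33) and Ndufa8 (0.029 ± 0.34), both near 3 CPM and overlapping between groups. Ndufab1, the mitochondrial acyl carrier protein, was near 0 (-0.020 ± 0.32), and Ndufb11 had the highest level per length of complex I at 75.9 CPM per kb of exon.

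Complex II oxidises succinate and is the complex with no subunit from the mitochondrial genome. Its catalytic flavoprotein Sdha measured 64.0, 69.4 and 73.5 CPM in the knockout libraries and 74.8, 81.3 and 65.0 in the wildtype libraries. The groups overlapped, wildtype 3 lying near the lowest knockout library, and the log2 fold change was -0.096 ± 0.15. The iron-sulfur subunit Sdhb measured 39.9, 33.8 and 50.5 CPM against 45.4, 62.2 and 77.6, so that wildtype 2 and 3 were high and wildtype 1 was inside the knockout range (-0.58 ± 0.23). Sdhc, a membrane anchor, measured 42.0, 37.5 and 41.8 CPM against 43.5, 55.8 and 69.3, with no overlap (-0.47 ± 0.19). The other anchor, Sdhd, was listed with 4, 4 and 3 counts in the knockout libraries and 0, 0 and 2 in the wildtype libraries, too few for a direction. Both anchors are needed for the complex, and how reads of Sdhd were assigned in the counting was not tested.

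All 8 tested members of complex III were negative, with a median of -0.46. Uqcrfs1, the Rieske iron-sulfur protein that takes electrons from coenzyme Q, measured 39.5, 37.3 and 46.8 CPM in the knockout libraries and 47.3, 73.1 and 61.4 in the wildtype libraries. The groups did not overlap, though wildtype 1 was within 1 CPM of knockout 3 (-0.56 ± 0.19). Uqcrq, a small supernumerary subunit, measured 34.5, 26.5 and 37.3 CPM against 31.5, 49.0 and 75.4, with wildtype 1 below 2 knockout libraries (-0.67 ± 0.29). The core protein gene Uqcrc1 had a log2 fold change of -0.50 ± 0.24 and Uqcr10, the highest of the complex per length at 56.7 CPM per kb of exon, one of -0.47 ± 0.24. Those nearest 0 were Uqcrb (-0.20 ± 0.20) and the core protein gene Uqcrc2 (-0.27 ± 0.18). Uqcr11 was listed with 1 count over the 6 libraries and was not tested.

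In complex IV, 14 of 15 tested members were negative, with a median of -0.39. The 12 broadly expressed forms had a median of -0.39 and all overlapped between groups. Cox4i1, the common form of the regulatory subunit 4, measured 158, 141 and 178 CPM in the knockout libraries and 144, 221 and 303 in the wildtype libraries. Wildtype 1 was near the lowest knockout library, and the log2 fold change was -0.49 ± 0.25. Cox7a2l had -0.51 ± 0.23, Cox7b -0.44 ± 0.20, Cox6a1 -0.24 ± 0.20, Cox8a -0.27 ± 0.17 and Cox6c -0.084 ± 0.20.

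Several complex IV subunits have a second gene with a restricted pattern. Ndufa4l2, a hypoxia-inducible relative of the subunit Ndufa4, measured 28.1, 22.7 and 28.7 CPM in the knockout libraries and 32.0, 56.3 and 44.8 in the wildtype libraries. The groups did not overlap, and wildtype 2 was the highest library rather than wildtype 3. Its log2 fold change was -0.74 ± 0.22 (edgeR quasi-likelihood test, Benjamini-Hochberg adjusted p = 0.277), and -0.95 without wildtype 1 (same test, adjusted p = 0.0400). Ndufa4 had -0.19 ± 0.23.

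Cox6b2, the testis-enriched form of subunit 6b, went the other way. It measured 3.06, 2.43 and 2.39 CPM in the knockout libraries (51, 35 and 29 counts) and 1.35, 0.77 and 1.25 in the wildtype libraries (31, 11 and 21 counts). Every knockout library was above every wildtype library (10.6% of all genes), and the log2 fold change was 1.21 ± 0.42 (edgeR quasi-likelihood test, Benjamini-Hochberg adjusted p = 0.291). The common form Cox6b1 had -0.40 ± 0.23. Of the tested genes within 50 kb of Cox6b2 on chromosome 7, Kmt5c had -0.23, Tmem238 -0.62 and Rpl28 -0.12. Il11 had 2.58 ± 0.82, with 33, 22 and 11 counts in the knockout libraries and 10, 0 and 4 in the wildtype libraries. It passed the filter on low counts through the knockout libraries, so a positive value was favoured. Fam71e2, Tmem150b and Tmem190 had at most 7 counts in any library and were not tested.

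Within a library, per kb of exon, Cox6b2 was at 5.46% ± 1.10 of Cox6b1 in the knockout libraries and 1.82% ± 0.758 in the wildtype libraries (SD, n = 3 each; exact permutation p = 0.10 two-sided, the smallest that 3 against 3 allows; 0.15 after Benjamini-Hochberg adjustment over 3 pairs). Ndufa4l2 was at 89.1% ± 7.26 of Ndufa4 against 132% ± 36.6 (exact permutation p = 0.10, adjusted 0.15). Cox4i2, the oxygen-responsive form of subunit 4, was at 4.63% ± 0.785 of Cox4i1 against 4.35% ± 0.230 (exact permutation p = 0.8, adjusted 0.8). Wildtype 1 lay with the wildtype libraries in the first pair and between the other wildtype libraries in the second. The muscle and germ-cell forms Cox6a2, Cox7a1, Cox7b2, Cox8b and Cox8c had at most 11 counts in any library and were not tested, and Cox7a2, near 1 CPM, had -0.17 ± 0.50.

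**Figure D3:**
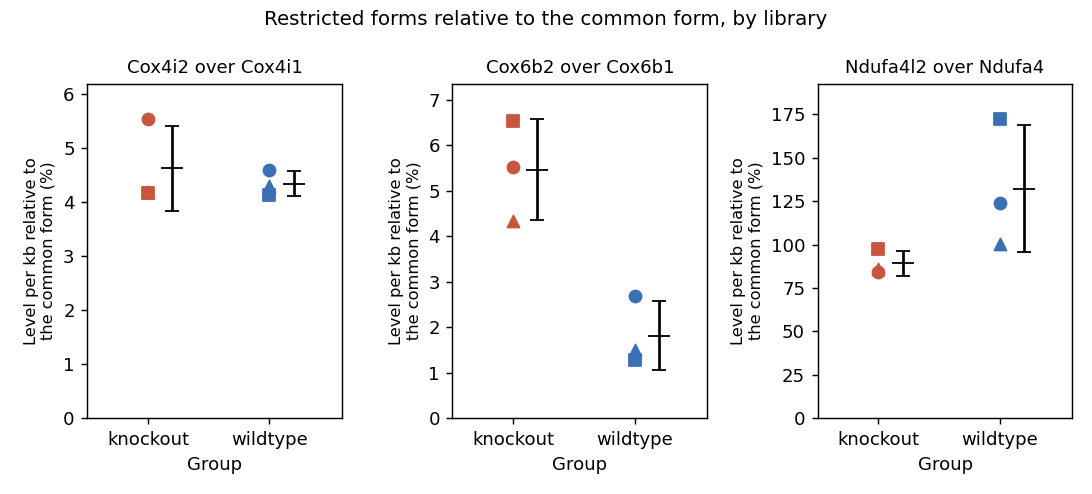
Level per kb of exon of 3 restricted forms as a percentage of the common form, in each library, by group (circle, square and triangle for library 1, 2 and 3), with mean and SD beside the points. Cox6b2 over Cox6b1 is higher in all 3 knockout libraries and Ndufa4l2 over Ndufa4 is lower in all 3, while Cox4i2 over Cox4i1 overlaps.

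All 18 members of complex V were negative, with a median of -0.39. The catalytic F1 part had a median of -0.47 over 5 members, the membrane part Fo -0.43 over 8 and the peripheral stalk -0.34 over 4. The catalytic pair Atp5a1 and Atp5b had -0.28 ± 0.19 and -0.21 ± 0.19. Atp5e, the epsilon subunit of the central stalk, measured 83.1, 62.2 and 86.2 CPM in the knockout libraries and 74.3, 116 and 180 in the wildtype libraries. Wildtype 3 stood highest and wildtype 1 below 2 knockout libraries (-0.68 ± 0.29). Atp5k, which supports dimers of the enzyme, measured 12.8, 9.66 and 11.9 CPM against 13.6, 16.5 and 20.2, with no overlap (-0.55 ± 0.21). Atp5d had -0.58 ± 0.23, Atp5c1 -0.47 ± 0.21 and Atp5pb -0.22 ± 0.17. The inhibitor of the enzyme, Atpif1, had -0.39 ± 0.23.

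The 3 genes of subunit c encode the same mature protein from different precursors. Their log2 fold changes were -0.28 ± 0.29 (Atp5g1), -0.89 ± 0.55 (Atp5g2) and -0.25 ± 0.17 (Atp5g3). Per kb of exon, Atp5g3 was at 46.5 CPM, Atp5g1 at 1.46 and Atp5g2 at 0.627. The 2 lower genes share sequence with others: 66.0% of the stretches of 50 bases in Atp5g1, 100% of those in Atp5g2 and 0% of those in Atp5g3 occur in another annotated gene. The counts of such members are uncertain, since how reads with several matches were handled is not given in the sources used here. Classes were formed of the members with a matched transcript sequence, untested ones included. The 10 with more than 40% shared stretches had a median of 23.3 CPM per kb of coding length. The 35 between 1% and 40% had 69.1, and the 44 with at most 1% had 54.5. Among the 10, Atp5o shares stretches with a second entry under its own symbol. Sdhd and Cox7a2 are low though 0% of their stretches are shared. Of the tested members the highest per length were Atp5a1 at 150.2 CPM per kb of exon, Cox6a1 at 137, Cox8a at 125, Cox4i1 at 123 and Atp5b at 119.

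**Figure D4:**
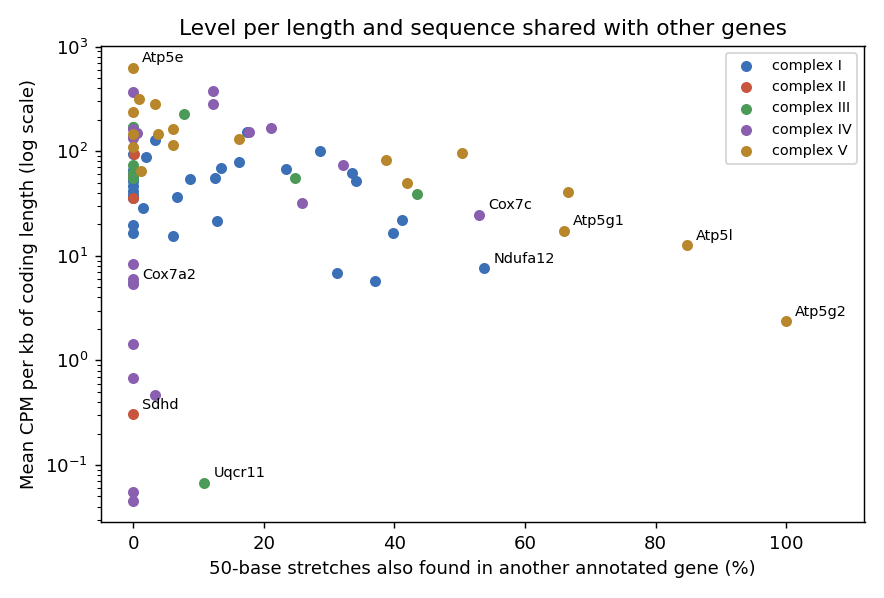
Mean CPM per kb of coding length over the 6 libraries (log scale) against the share of 50-base stretches that also occur in another annotated gene, 1 point per subunit gene with a matched transcript sequence, coloured by complex. Atp5g2 lies at 100% shared and a low level, whereas Sdhd and Uqcr11 lie low with little or no shared sequence.

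Of the members with older Atp5 names, Dmac2, which takes part in complex I assembly, had a log2 fold change of 0.18 ± 0.23, and Dmac2l had -0.37 ± 0.32.

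Genes of related pathways were read from the same fit, which called 0 of them. Assembly factors, which build the complexes but are not part of them, were lower at a median of -0.34, with 43 of 50 tested negative (50.7% of all genes). At an unadjusted p under 0.05, 9 were lower, against 6.35% of all genes. Without wildtype 1 their median was -0.45 and 4 were called lower (0.832% of all genes), and with wildtype 1 as the sole control it was -0.037. Tmem242, needed to assemble complex I and ATP synthase, measured 23.0, 19.9 and 27.3 CPM in the knockout libraries and 28.3, 48.5 and 45.0 in the wildtype libraries (-0.79 ± 0.23). Coa3, an assembly factor of complex IV, had -0.75 ± 0.24. Neither overlapped between groups. Carriers and coenzyme Q genes had a median of -0.21 (13 of 17 negative), with Etfb, which feeds electrons from fatty acid oxidation to coenzyme Q, at -0.83 ± 0.26 and Coq9 at -0.55 ± 0.19. Cytochrome c (Cycs) had 0.17 ± 0.44 at under 2 CPM. Sequence that Cycs shares with other genes was not measured, and how reads with several matches were handled is not given. The level of Cycs is therefore uncertain. Citric acid cycle genes had a median of -0.18 (15 of 16 negative), with Suclg1 at -0.69 ± 0.24 and Suclg2 at -0.52 ± 0.22.

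Subunits encoded in the mitochondrial genome mostly had positive values. Of 13, 12 were positive, with a median of 0.17, and all 13 overlapped between groups. Their median ranged from -0.082 (without knockout 3) to 0.43 (wildtype 1 as the sole control) over the alternatives. It was 0.070 without wildtype 1, 0.36 with length and GC trends removed, and -0.058 when libraries were scaled by size alone, which put the median of all genes at -0.21. The highest fold changes were mt-Nd2 (0.42 ± 0.26) and mt-Nd4l (0.37 ± 0.28), and mt-Co3 was negative (-0.17 ± 0.28). Knockout 3 was the highest library for 11 of the 13 and wildtype 3 for the other 2. The difference between the nuclear and the mitochondrial subunits was not tested.

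Glycolysis genes had a median of -0.035, with 11 of 17 negative (50.7% of all genes), and 3 were higher at an unadjusted p under 0.05 (8.26% of all genes). Over the alternatives this median ranged from -0.23 (library size alone) to 0.13 (wildtype 1 as the sole control), and it was -0.16 without wildtype 1. Of the 17, Gapdh had at most 20 counts in any library, and whether its reads were lost in counting was not tested. The glucose transporter gene Slc2a1 measured 48.5, 31.0 and 20.1 CPM in the knockout libraries and 15.2, 17.7 and 5.25 in the wildtype libraries (1.39 ± 0.43; edgeR quasi-likelihood test, Benjamini-Hochberg adjusted p = 0.281). DESeq2 called it, with an adjusted p of 0.0428. Every knockout library was above every wildtype library, as for 3 of the 17 glycolysis genes (10.6% of all genes). Hexokinase 2 (Hk2) had the same pattern at 1.00 ± 0.40, and 1 of the 17 had the reverse pattern (9.81% of all genes). Of the transcription factors, Nrf1 (-0.023 ± 0.16), Gabpa (-0.045 ± 0.16), Esrra (-0.083 ± 0.17) and Tfam (-0.066 ± 0.17) were near 0. Ppargc1a, a coactivator of mitochondrial biogenesis, had 0.63 ± 0.69 at about 1 CPM, its relative Pprc1 had 0.44 ± 0.25, and Tfb1m, a mitochondrial ribosomal RNA methyltransferase, had -1.13 ± 0.39 with no overlap.

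**Figure D5:**
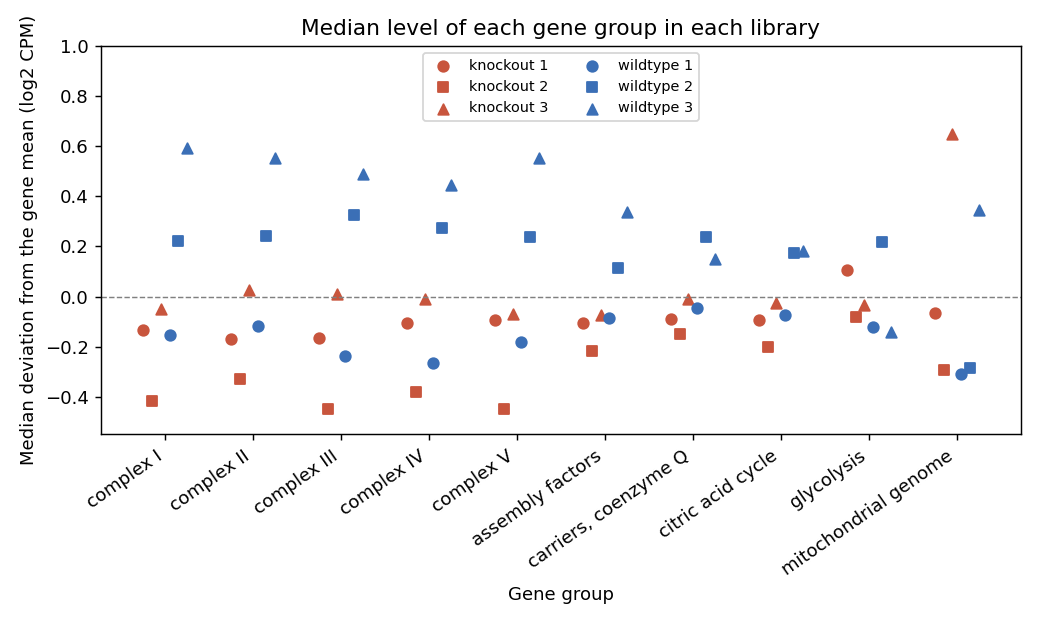
Median deviation of each gene group from its genes' means over the 6 libraries (log2 CPM), 1 point per library, knockout in red and wildtype in blue. In complexes I to V wildtype 2 and 3 lie above 0 and wildtype 1 lies within the knockout points, and the mitochondrial genome shows another order.

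Markers of several other cell types had higher mean levels in the libraries labelled knockout, but the edgeR quasi-likelihood test called 0 of them (smallest Benjamini-Hochberg adjusted p = 0.273). All 12 chondrocyte markers were positive, with a median log2 fold change of 2.13. For 10 of 12 every knockout library was above every wildtype library (10.6% of all genes), and 12 were higher at an unadjusted p under 0.05 (8.26% of all genes). Without wildtype 1 the median was 3.42 with 10 called higher (2.13% of all genes), and with wildtype 1 as the sole control it was 0.95. Their summed level was 11801 to 26606 CPM in the knockout libraries and 3545 to 10081 in the wildtype libraries. Wildtype 1 was the highest of the wildtype libraries at 10081. Endothelial markers (12 of 12 positive, median 1.29) summed to 142 to 250 against 54.6 to 145 CPM. Without wildtype 1 the endothelial median was 2.02 and 8 were called higher (2.13% of all genes). Macrophage markers (12 of 12, median 1.19) summed to 163 to 383 against 94.6 to 139. Neutrophil markers (8 of 8 tested, 1.66) summed to 54.1 to 187 against 20.4 to 53.0. Erythroid markers (9 of 9 tested, 1.56) summed to 58.6 to 430 against 21.4 to 126. Muscle markers (5 of 6 tested negative, -0.62) summed to 10.9 to 37.6 against 13.8 to 51.8, and mural markers (6 of 9 tested negative, -0.13) to 479 to 575 against 457 to 578. Osteoblast markers had a median of -0.27, with 8 of 10 negative. The part of these cells in the levels of the subunit genes was not tested.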

How the data were processed

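The authors deposited a table of raw read counts, whole numbers for 27179 gene IDs in 6 libraries. CASAVA 1.7, Subread and featureCounts with mm10 were used, per the submitters' processing notes. Whether counting used strand, its annotation and its treatment of reads with several matches were not given in the sources used here, and 0 columns were unmapped. Symbols came from RefSeq (GRCm38.p6, 25275 IDs) and GENCODE (a further 18). In edgeR 4.0.16 (R 4.3.3), filterByExpr at its defaults left 13505 genes, TMM factors were 0.813 to 1.09, and a two-sided quasi-likelihood test with Benjamini-Hochberg adjustment (threshold 0.05) was run on all 6 libraries without covariates. Standard errors are the absolute log2 fold change divided by the square root of F. Levels are TMM-scaled CPM, and levels between genes are per kb of exon or coding length. The biological coefficient of variation was 24.2%. The test was run on simulated counts with larger changes and less spread than in these data. That run does not measure the test's power for changes as small as those of the members. Every pair of libraries differed by more than sampling noise (chi-square per degree of freedom 18.3 to 139.1). Alternatives were 3 other scalings, 2 other filters, DESeq2 1.42.0, limma voom 3.58.1, removal of length and GC trends, the replicate number as a block, leaving out each library, and wildtype 1 as the sole control, whose spread is then taken to equal that of the knockout libraries. The comparison of knockout with each wildtype library alone was added after seeing the data. Members, lists and the named genes were chosen with earlier results of these data known. Named were all of complex II, in each other complex the 4 of smallest p and the 2 most positive, restricted forms and their partners, subunit c genes, Atpif1, the extremes per length, untested members, 6 fixed genes (Ppargc1a, Nrf1, Gabpa, Esrra, Tfam and Cycs) and up to 2 of smallest p in each pathway list. Other genes named, such as mt-Co3, the neighbours of Cox6b2 and the 8 members called without wildtype 1, were chosen after their values were seen. Assembly symbols Uqcc4, Uqcc5 and Uqcc6 matched no ID, and 5 pseudogene rows were left out. So was 1 row that fitted the member rule only by an older symbol other than an Atp5 name.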

Additional observations from a re-analysis of the deposited data

How the results depend on the processing

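The members' median log2 fold change stayed negative, from -0.62 (library size alone, which moved the median of all genes to -0.21) to -0.30 (length and GC trends removed with a replicate block), under the alternatives that kept all 6 libraries, and was 0.015 with wildtype 1 as the sole control. Leaving out each library gave medians from -0.61 to -0.21, calls over all genes from 0 to 409, called members from 0 to 8 and called pathway genes from 0 to 5, the upper counts coming without wildtype 1. Calls over all genes were 248 with DESeq2, 24 without a filter, 236 with the replicate block and 298 with the block and trends removed. These fits called 0 members, and DESeq2 and both block fits called 1 pathway gene (Slc2a1). The replicate numbers did not pair the libraries (same-number correlations of deviations 0.115, -0.074 and 0.222), and knockout 2 correlated best with wildtype 1 (0.347). Members lower in every knockout library numbered 13 of 84 with all libraries (9.81% of all genes), 66 without wildtype 1 (23.6%), 16 against wildtype 1 alone (24.5%), 67 against wildtype 2 alone (36.6%) and 80 against wildtype 3 alone (39.4%). The median level was 16.7 CPM per kb of exon and 61.2 per kb of coding length. Single genes near 0 changed sign with library size alone: Ndufa12 (-0.051), Ndufa8 (-0.18), Cycs (-0.045). Others did so with trends removed (Ndufa4 (0.001)), with block and trends (Ndufa4 (0.0)), with voom (Ndufab1 (0.032)), with the block (Ndufab1 (0.008)) and with upper-quartile factors (Ndufa8 (-0.004)). Leaving out each library in turn crossed 0 for Cox7a2 (-0.43 to 0.051), Gabpa (-0.14 to 0.048), Cox6c (-0.26 to 0.045), Ndufa12 (-0.063 to 0.38), Ndufa8 (-0.17 to 0.15), mt-Nd4l (-0.009 to 0.59), Cycs (-0.038 to 0.29), Ndufab1 (-0.18 to 0.20), Ndufa4 (-0.38 to 0.031). Under wildtype 1 as the sole control the signs turned for Ndufa8 (-0.12), Ndufab1 (0.27), Ndufb11 (0.043), Uqcr10 (0.015), Uqcrc1 (0.047), Uqcrc2 (0.019), Uqcrq (0.045), Cox4i1 (0.13), Cox4i2 (0.14), Cox6a1 (0.12), Cox6c (0.28), Cox7a2 (0.43), Cox7a2l (0.03), Ndufa4 (0.21), Atp5a1 (0.016), Atp5b (0.07), Atp5d (0.002), Atp5e (0.045), Atp5g1 (0.25), Atp5g3 (0.052), Atp5l (0.009), Atp5pb (0.076), Cycs (-0.089). The cause was not tested. Depth limits Cox6b2, Cox7a2, Atp5g2 and Ndufa8, which had low counts and standard errors of 0.34 to 0.55.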
